A study of Mus musculus with 232 samples.

Results

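A motile cilium is a beating, hair-like extension of the cell whose shaft, the axoneme, is built of microtubule doublets that carry dynein arms and radial spokes. In the brain it is the hallmark of ependymal cells, which line the ventricles with tufts of cilia and move the cerebrospinal fluid. Intraflagellar transport (IFT) is the traffic of protein trains along the cilium, and it is also used by the single, immotile primary cilium of neurons and glia. Foxj1 is the transcription factor best known for switching on motile cilium genes. The genes described here were chosen by symbol: all genes that begin with Cfap, Dnah, Dnaic, Dnal, Rsph, Tekt or Ift followed by a digit, and Foxj1, Enkur and Tmem212. They number 77 of the 27933 genes in the table. By role they are Foxj1, 15 dynein heavy chains, 5 dynein intermediate and light chains, 8 radial spoke genes, 5 tektins, 25 Cfap (cilia and flagella associated protein) genes, Enkur and Tmem212, 3 genes of the IFT-A complex, 11 of IFT-B, and 2 antisense transcripts, Dnah2os and Ift88os. The dynein, spoke, tektin and Cfap genes with Enkur and Tmem212 are called the 60 axonemal genes below.

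The study profiled single cells of the microdissected mouse dentate gyrus with the 10X Genomics Chromium system, and gave each of 24185 cells to 1 of 24 named clusters. The cells came from 8 ages. At E16.5, P0 and P5 (perinatal) they were from CD-1 mice whose sex is given as unknown. At P18 and P23 they were from male CD-1 mice and at P19 from female C57Bl/6 mice (juvenile). At P120 and P132 (adult) they were GFP-sorted cells of hGFAP-GFP mice, pooled from males and 1 female at each age. In that line the human GFAP promoter drives the green fluorescent protein, so mouse line and sorting cannot be told apart from adult age. The labels give no other allele and no treatment. Cluster names are written as the labels spell them. Ages were sequenced as 11 libraries, 2 each for P0, P5 and P132 and 1 for every other age, each from pooled animals, and nothing says whether the libraries of an age held different animals. The unit of replication was therefore the age, and p-values measure the spread between ages, which differ in animals, depth and in part in line. Totals ran from 3423165 UMIs (unique molecular identifiers, each a counted RNA molecule) in 1363 cells at P120 to 30076988 UMIs in 4779 cells at P0, and median depth per cell from 1896 to 6044 UMIs. A total of 456 cell barcodes occurred in more than 1 library, in 916 cells, of which 5 were Ependymal. Levels are CPM, the UMIs of a gene scaled to 1000000 UMIs of the pooled cells of a cluster, with exact Poisson 95% intervals that cover counting error only. Reads came from the 3′ end of transcripts, so levels were compared between cells for each gene and not between genes.

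The cluster named Ependymal held 182 cells and 966361 of 113369778 UMIs (0.852%). It had 8 cells at E16.5, 72 at P0, 45 at P5, 16 at P18, 1 at P19, 7 at P23, 30 at P120 and 3 at P132. Only P0, P5, P18 and P120 reached 10 cells, and values by age are given for those 4. Its markers bore out the name in part. Of 8 ependymal marker genes that are not members, all 8 were higher in the cluster than in all other cells together. Ccdc153, for example, stood at 345 CPM against 0.125, and Hdc, the enzyme that makes histamine, at 260 against 0.658.

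The cluster also held 19 cells in which Ttr made up at least 1% of UMIs. Ttr encodes transthyretin, the main secreted product of the choroid plexus epithelium, which is itself a ciliated tissue. These Ttr-high cells were 4 of 8 at E16.5, 6 of 72 at P0, 3 of 16 at P18 and 6 of 7 at P23, and none was found at P5, P19, P120 or P132. The division was made after the values were seen. The lowest Ttr share above it was 1.71% and the highest below it 0.708%, and 156 of the 182 cells had no Ttr UMI. Summed over 8 choroid plexus markers, the level was 106331 CPM in Ttr-high cells, 185 CPM in the other 163 Ependymal cells and 25.1 CPM outside the cluster. Without Ttr itself the sums were 3776 CPM in Ttr-high and 160 CPM in the other Ependymal cells, and none of the 8 was at 0 in the Ttr-high cells. Of the 8 ependymal markers, Ccdc153 and Fam216b were at 0 in the Ttr-high cells. Ttr-high cells are kept in the values below as the authors placed them, and the sums, the calls and the values by age at P0 and P18 are also given without them.

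Over all ages pooled, the axonemal genes stood lower in the Ttr-high cells, though not at E16.5. Their summed level per cell had a median of 1530 CPM over the 19 Ttr-high cells (lowest 856, highest 2866) and of 8130 CPM over the other 163 (lowest 1054, highest 22222). At P18 the groups did not overlap: 3 Ttr-high cells lay between 856 and 1844 CPM and 13 other cells between 5263 and 20341 CPM. At E16.5 they did overlap and the order was the opposite, with a median of 2469 CPM over 4 Ttr-high cells (1364 to 2866) and of 2005 CPM over 4 other cells (1807 to 2415). Pooled over ages, 46 of 47 axonemal and 14 of 14 IFT genes with at least 20 Ependymal UMIs were lower in Ttr-high cells, as were 70.1% of all 7414 such genes. Foxj1, also pooled over ages, was at 197 CPM in Ttr-high and 1191 CPM in the other Ependymal cells. At E16.5 its order was the opposite, at 346 CPM (21 UMIs) and 213 CPM (4 UMIs), while at P0 it stood at 155 and 1222 CPM. Median depth was 7985 UMIs in Ttr-high and 3996 UMIs in other Ependymal cells, and the part of depth in these values was not tested.

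**Figure D1:**
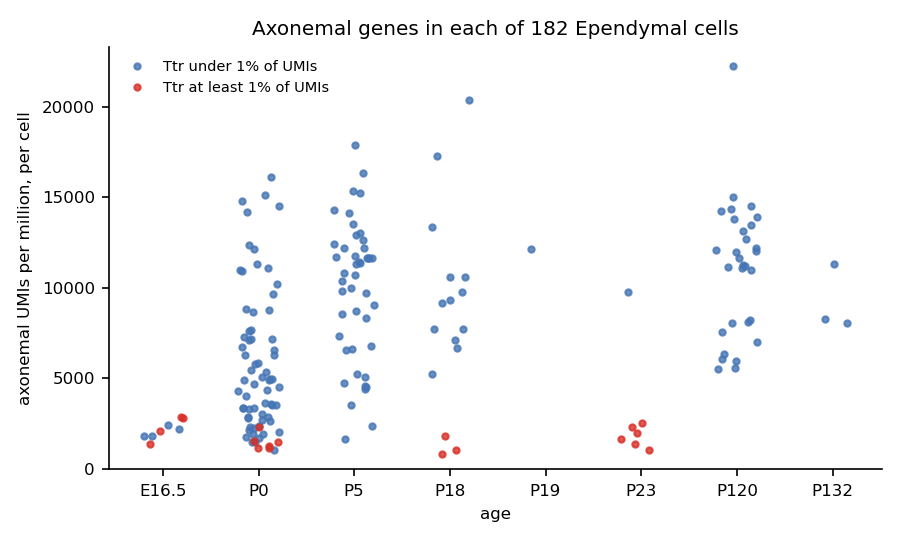
Summed CPM of the 60 axonemal genes (y axis) in each of the 182 Ependymal cells (points, spread sideways at random) by age (x axis), coloured by whether Ttr made up at least 1% of the cell's UMIs. All 19 Ttr-high cells lie at or below 2866 CPM, and the cells of P5 and P120, where none is Ttr-high, reach 17908 and 22222 CPM.

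The axonemal genes stood far higher in the Ependymal cluster than in any other cluster as a sum, and the IFT genes only a few times higher. Summed over the 60 axonemal genes, the Ependymal level was 7166 CPM (95% interval 6998 to 7337) against 378 CPM in all other cells, and without Ttr-high cells it was 8317 CPM. Summed over the 14 IFT genes it was 2004 CPM (1916 to 2096) against 491 CPM, and 2259 CPM without Ttr-high cells. The next clusters in the order of the axonemal sum were RGL_young at 523 CPM, OPC at 514 CPM and RGL at 473 CPM. Their ranges over ages with 20 cells or more overlapped, at 446 to 597, 226 to 689 and 286 to 551 CPM, so the order among them is not larger than the spread. The lowest sums were 163 CPM in the cluster spelt MiCajal-Retziusoglia, read here as microglia, and 154 CPM in PVM. For the IFT sum the next clusters were RGL_young at 680 CPM, GC-juv at 632 CPM and nIPC-perin at 619 CPM, and microglia were lowest at 227 CPM.

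**Figure D2:**
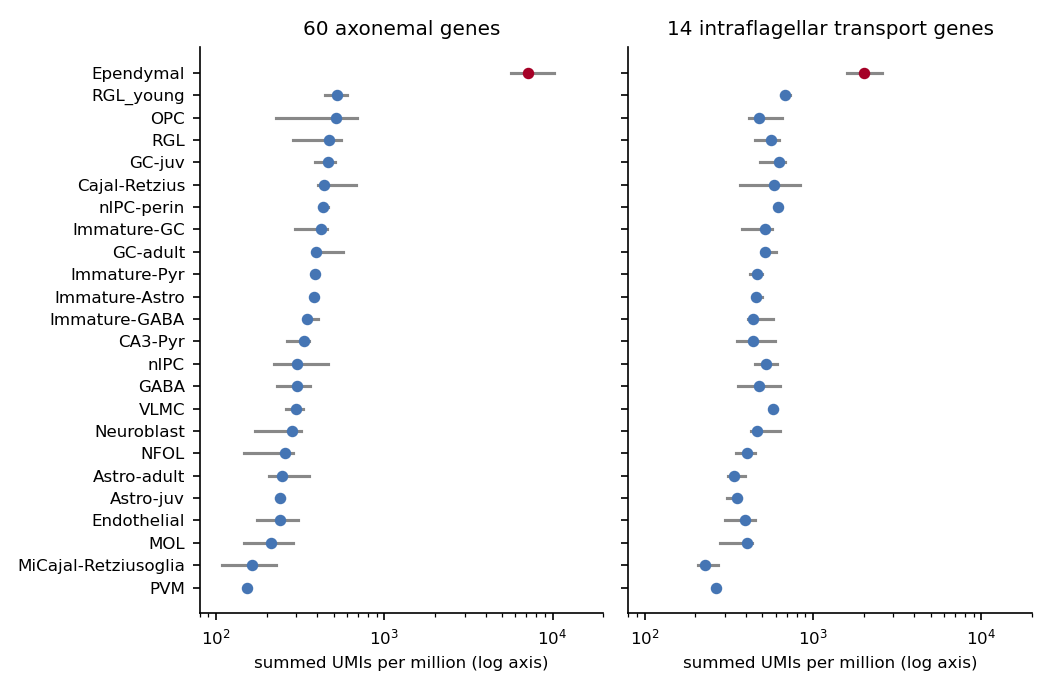
Summed CPM on log axes of the 60 axonemal genes (left) and the 14 intraflagellar transport genes (right) in the 24 clusters. Points are all ages pooled, and lines run from the lowest to the highest age with at least 20 cells (Ependymal in red). Ependymal cells stand at 7166 and 2004 CPM, and the next cluster at 523 and 680 CPM.

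Of the 77 members, 74 had a UMI in Ependymal cells. Rsph6a, a spoke gene of sperm, had 0 UMIs there and 5 outside, Dnah2os had 0 and 25, and Ift88os had 0 in the whole table. A count of 0 in the Ependymal cells allows up to 3.82 CPM by the exact interval. For the 71 members with more than 3 UMIs both inside and outside the cluster, the ratio of Ependymal CPM to that of all other cells was 10 or more for 46 and 100 or more for 28. Over all 12142 genes treated alike, 828 (6.82%) reached 10. Because the cluster was drawn by its authors on these same counts, these ratios describe the cluster and test nothing. By role, 12 of 14 dynein heavy chains, 21 of 24 Cfap genes, 5 of 7 spoke genes, 3 of 5 dynein intermediate and light chains, 2 of 4 tektins, Enkur, Tmem212 and Foxj1 reached a ratio of 10. None of the 14 IFT genes did with Ttr-high cells kept, and they ran from 3.31 for Ift20 to 9.24 for Ift88. Without Ttr-high cells Ift88 stood at 86.9 against 8.06 CPM and Ift80 at 102 against 9.86 CPM. Both then lay above a ratio of 10, so the split from the axonemal genes at 10 depends on these cells. Just inside the ratio of 10 lay Rsph3b at 12.7, and just outside it Dnah7a at 9.52.

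In the test across all genes on counts summed per age (edgeR's quasi-likelihood test with age as a block, P0, P5, P18 and P120), 63 members passed the filter on low counts and 62 of them were called higher in Ependymal than in all other cells at an adjusted p under 0.05. Of all 11201 genes tested, 14.3% were called higher and 18.9% lower, and 0 members were called lower. The filter keeps a gene that is high in either group, so these 63 are not all members. Axonemal genes that are scarce outside the cluster could pass only through their Ependymal counts, which favours a call higher. The 62 of 63 and the median below are therefore descriptions. Without the filter 68 of 76 members were called higher and 0 lower, beside 1924 higher and 2618 lower of 20627 genes. Their median log2 difference was 5.71, against -0.27 over all genes tested; for 48 axonemal genes it was 6.30 and for 14 IFT genes 1.93. The member not called was Cfap97, at a log2 difference of 0.14 ± 0.49 (SE). Without regard to the test, 62 members had a higher CPM in Ependymal cells at each of the 4 ages, as did 11.1% of the 20627 genes with a UMI at those ages. They are not the same 62 genes as those called. Ift74 and Ift122 were called higher, though both were at 0 CPM in Ependymal cells at P18. Against astrocytes alone (Immature-Astro, Astro-juv and Astro-adult summed, same test and ages), 48 of 51 members that passed the filter were called higher and 0 lower, where 14.4% and 10.8% of 6505 genes were. The 3 not called there were Cfap97 at a log2 difference of 0.90 ± 0.50, Ift27 at 0.88 ± 0.34 and Ift52 at 1.13 ± 0.46. Without Ttr-high cells 64 of 65 members tested were called higher against all other cells and 52 of 54 against astrocytes. All of these calls inherit the authors' clustering and add no independent evidence to it.

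**Figure D3:**
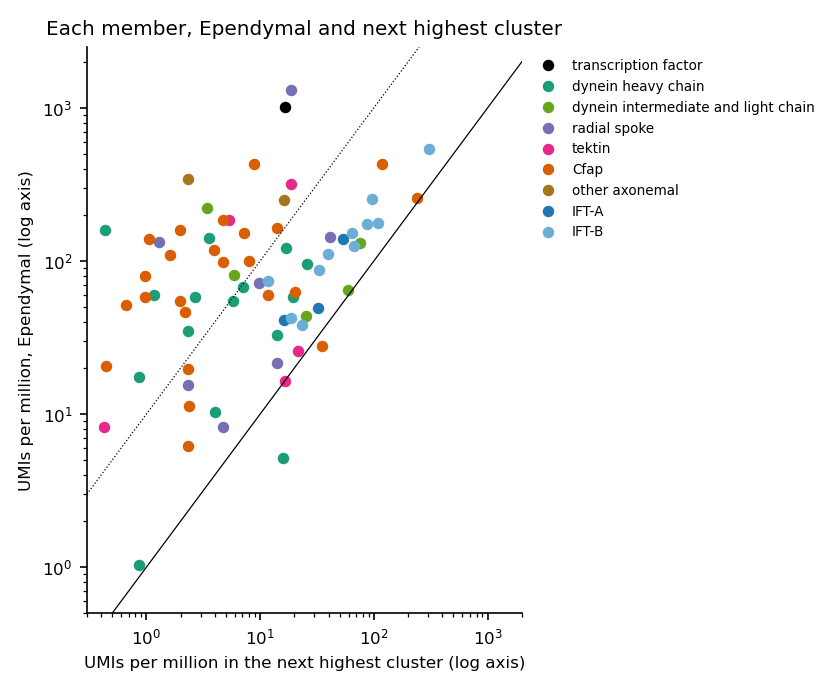
CPM in Ependymal cells (y axis) against CPM in the next highest of the other 23 clusters (x axis), log axes, 1 point per member with a UMI in both, coloured by role. The solid line marks equal levels and the dotted line a ratio of 10; the 14 IFT genes (blue) all lie between the lines, and Foxj1 (black) stands at 1013 against 16.6 CPM.

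Foxj1 had 979 UMIs in Ependymal cells and 310 in all others. Its Ependymal level was 1049 CPM at P0, 1298 at P5, 699 at P18 and 1046 at P120, and 1222, 1298, 1009 and 1046 CPM without Ttr-high cells. The 4 ages lay within 2-fold of each other, and all stood far above other cells, whose highest cluster was RGL_young at 16.6 CPM. After every cell was thinned to 1000 UMIs, 48.4% of Ependymal cells and 0.262% of all others had a Foxj1 UMI; unthinned, the shares were 76.9% and 1.15%. As a background, 0 of 428 microglia had a Foxj1 UMI, which allows a share of up to 0.701%. Outside the Ependymal cluster the shares were highest in nIPC-perin at 5.56% of 468 cells (exact 95% interval 3.66 to 8.03), RGL_young at 5.54% of 686 (3.95 to 7.52) and MOL at 5.11% of 704 (3.61 to 7.01), and all other clusters were at 2.00% or less. Median depth was 6096, 3948 and 3685 UMIs in these clusters and 2964 in microglia. After thinning the shares were 1.07%, 1.75% and 0.852%, above the 0.701% limit from microglia, but no interval was computed for them. PVM at 1.27% of 79 cells and Astro-juv at 0.731% of 821 cells also lay above that limit after thinning. The limit therefore does not set nIPC-perin, RGL_young and MOL apart at equal depth. In MOL the level was 19.2 CPM at P23, 20.9 at P19, 4.31 at P18, 7.25 at P120 and 0 at P132, while the 45 axonemal genes with a ratio of 10 or more summed to 12.1 CPM there, the lowest of all clusters. MOL thus held Foxj1 UMIs beside the least of these axonemal transcripts. In RGL_young it stood at 14.3 CPM at E16.5, 28.1 at P0 and 3.98 at P5, and in nIPC-perin at 15.1, 15.6 and 5.33 CPM, with the P5 value lowest in both.

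The radial spokes, T-shaped bridges between doublets and the central pair, were represented most clearly by Rsph1, a spoke head protein. Rsph1 stood at 1166 CPM at P0, 2098 at P5, 996 at P18 and 814 at P120 in Ependymal cells, against 9.18 CPM in all other cells. The P5 value was the highest. Without Ttr-high cells P0 and P18 stood at 1359 and 1356 CPM, still below P5. Rsph4a and Rsph9, also of the spoke head, had ratios to other cells of 372 and 5.10, with 0.356 and 28.2 CPM in other cells. Rsph3a (21.7 CPM) and Rsph3b (8.28 CPM) share 59.4% of the 31-base words of the Rsph3a transcripts, and reads could have been split between them, so both are uncertain. Rsph10b and Rsph14 stood at 71.4 and 15.5 CPM.

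Dynein heavy chains are the motors of the arms. Of 15, Dnah12 (an inner arm chain) had 160 CPM in Ependymal and 0.125 in all other cells, and Dnah6 142 against 0.365. The outer arm chains Dnah5, Dnah9 and Dnah11 pooled at 95.2, 121 and 57.9 CPM. Dnah5 stood at 25.2 CPM at P0, 146 at P5, 424 at P18 and 174 at P120; the P0 value was the lowest of the 4, and without Ttr-high cells P0 and P18 stood at 30.0 and 631 CPM. Dnah9 had the most UMIs outside the cluster of the 3, 656, led by GC-juv at 16.8 CPM. Dnah10, Dnah2, Dnah1 and Dnah3 ranged from 35.2 to 67.3 CPM, and Dnah8, Dnah14 and Dnah17 had 10, 5 and 1 Ependymal UMIs. Dnah14 was higher in another cluster, at 15.8 CPM in MOL against 5.17. Lbr, on the other strand, lies over the 3′ end of Dnah14, and its part in these counts was not tested. Dnah7a, Dnah7b and Dnah7c (57.9, 33.1 and 17.6 CPM) are near copies: 43.8% of the 31-base words of Dnah7a occur in Dnah7b and 43.5% in Dnah7c, so their separate levels are uncertain.

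Among the smaller dynein subunits, Dnali1, a light intermediate chain of inner arms, was the most restricted. It stood at 130 CPM at P0, 358 at P5, 148 at P18 and 465 at P120, against 0.365 CPM outside, so the ages varied but none approached the other cells. Without Ttr-high cells P0 and P18 stood at 153 and 189 CPM. Dnaic1 and Dnaic2, the intermediate chains of outer arms, pooled at 43.5 and 80.7 CPM, with ratios of 30.0 and 259. UMIs given to Dnaic1 were not restricted to the cluster, since Astro-juv reached 25.4 CPM (60 UMIs) and Astro-adult 18.6 CPM (42 UMIs). Enho, on the other strand, lies over the 3′ end of Dnaic1, and its part in these counts was not tested. The light chains Dnal1 and Dnal4 were shared with other cells, at 65.2 against 22.1 CPM and 130 against 55.3 CPM.

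Tektins are filament proteins inside the doublet wall. Tekt1 stood at 279 CPM at P0, 518 at P5, 84.8 at P18 and 145 at P120, against 2.83 CPM in other cells. Tekt4 stood at 153, 310, 63.6 and 218 CPM at the same ages, against 0.730. Both were highest at P5 and lowest at P18, where a single UMI is worth 21.2 CPM. Without Ttr-high cells, P0 and P18 stood at 322 and 126 CPM for Tekt1 and at 183 and 94.6 CPM for Tekt4, which left that order as it was. Tekt2, Tekt3 and Tekt5 had 25, 8 and 16 Ependymal UMIs, and Tekt5 stood at 16.6 CPM both there and in GC-adult.

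Of the 25 Cfap genes, 21 had a ratio of 10 or more and are called restricted here, 3 were broad, and Cfap73 had too few UMIs for a ratio. Cfap126, which helps to place basal bodies, stood at 398 CPM at P0, 480 at P5, 127 at P18 and 683 at P120, against 0.703 CPM outside. Cfap44, a tether of inner arm dynein, stood at 130, 255, 233 and 363 CPM against 1.25. Of the broad ones, Cfap20 stood at 249, 327, 276 and 203 CPM against 83.2, and OPC reached 241 CPM. Cfap36 was at 613 CPM at P0, 368 at P5, 63.6 at P18 and 72.7 at P120, and all other cells at the same ages at 107, 96.2, 102 and 78.7 CPM. It was above other cells at P0 and P5 and not at P18 and P120. Without Ttr-high cells Cfap36 at P0 and P18 was 701 and 94.6 CPM, the latter still not above the 102 CPM of other cells. Without them P0 and P18 were 453 and 158 CPM for Cfap126, 153 and 347 CPM for Cfap44, and 270 and 284 CPM for Cfap20. Cfap97 stood at 27.9 against 21.1 CPM, and NFOL was higher at 35.2 CPM. Of the further restricted Cfap genes, Cfap54, Cfap206, Cfap43, Cfap161, Cfap45 and Cfap77 pooled between 110 and 166 CPM. Cfap69, Cfap46, Cfap52, Cfap100, Cfap74, Cfap61, Cfap70, Cfap53 and Cfap57 lay between 46.6 and 99.3 CPM, and Cfap221 and Cfap157 at 20.7 and 19.7 CPM. Cfap100, at 63.1 CPM and a ratio of 19.6, was shared with astrocytes, at 20.4 CPM in Immature-Astro (61 UMIs) and 18.2 CPM in Astro-adult (41 UMIs). The Cfap genes with fewest Ependymal UMIs were Cfap73 (2), Cfap99 (6) and Cfap58 (11).

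Enkur, a protein of motile cilia and sperm tails, stood at 233 CPM at P0, 327 at P5, 170 at P18 and 378 at P120, against 2.54 CPM outside, and without Ttr-high cells at 267 CPM at P0 and 252 at P18. Tmem212, a membrane protein, stood at 34.3 CPM at P0, 637 at P5, 1229 at P18 and 1003 at P120, against 0.169 CPM in all other cells. Its ratio of 2045 was the largest of the 71. The P0 value, from 15 UMIs, was far lower than the other 3, and removal of Ttr-high cells left it at 40.9 CPM, with P18 at 1829 CPM. No UMI of Tmem212 was seen in Ttr-high cells or at E16.5.

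IFT-B trains carry cargo to the tip and IFT-A trains back to the base. Ift20, an IFT-B subunit that also works at the Golgi, stood at 514 CPM at P0, 777 at P5, 233 at P18 and 218 at P120 in Ependymal cells. In other cells it was 122, 156, 220 and 144 CPM at these ages, so at P18 the levels were alike. Ift22 stood at 231, 347, 212 and 174 CPM and Ift46 at 126, 235, 127 and 116 CPM. Both were highest at P5. Ift27, a small GTPase, stood at 187, 198, 148 and 58.1 CPM, and Ift57 at 190, 181, 212 and 87.2 CPM. Ift74, which with Ift81 binds tubulin, stood at 165, 140, 0 and 58.1 CPM, and Ift81 at 105, 109, 212 and 145 CPM. The P18 value of Ift74 was 0 of 47186 UMIs, where 3 counts would be 63.6 CPM. Ift88, needed for any cilium to form, stood at 73.2, 81.8, 127 and 87.2 CPM, and Ift80 at 59.4, 116, 191 and 160 CPM. Ift52 stood at 34.3, 40.9, 42.4 and 58.1 CPM and Ift172 at 16.0, 78.4, 42.4 and 102 CPM. Of IFT-A, Ift122 stood at 43.4, 64.7, 0 and 116 CPM, Ift140 at 36.6, 64.7, 21.2 and 29.1 CPM, and Ift43 at 135, 143, 106 and 174 CPM. The IFT genes therefore shared no order of ages. At P18 the 3 Ttr-high cells held 15481 of the 47186 UMIs, and at P0 the 6 held 70809 of 437364, which bears on every P18 and P0 value above. Without Ttr-high cells P0 and P18 stood at 587 and 284 CPM for Ift20, so that it then lay above the 220 CPM of other cells at P18, and at 188 and 0 CPM for Ift74. For the other IFT-B genes they were 270 and 315 (Ift22), 142 and 189 (Ift46), 216 and 221 (Ift27), 205 and 284 (Ift57), 109 and 252 (Ift81), 81.8 and 189 (Ift88), 70.9 and 221 (Ift80), 38.2 and 63.1 (Ift52) and 19.1 and 63.1 CPM (Ift172). For IFT-A they were 40.9 and 0 (Ift122), 35.5 and 31.5 (Ift140) and 145 and 126 CPM (Ift43). Ift27 was then highest at P18, at 7 UMIs, and Ift57 was so with and without these cells, at 9 UMIs without them.

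**Figure D4:**
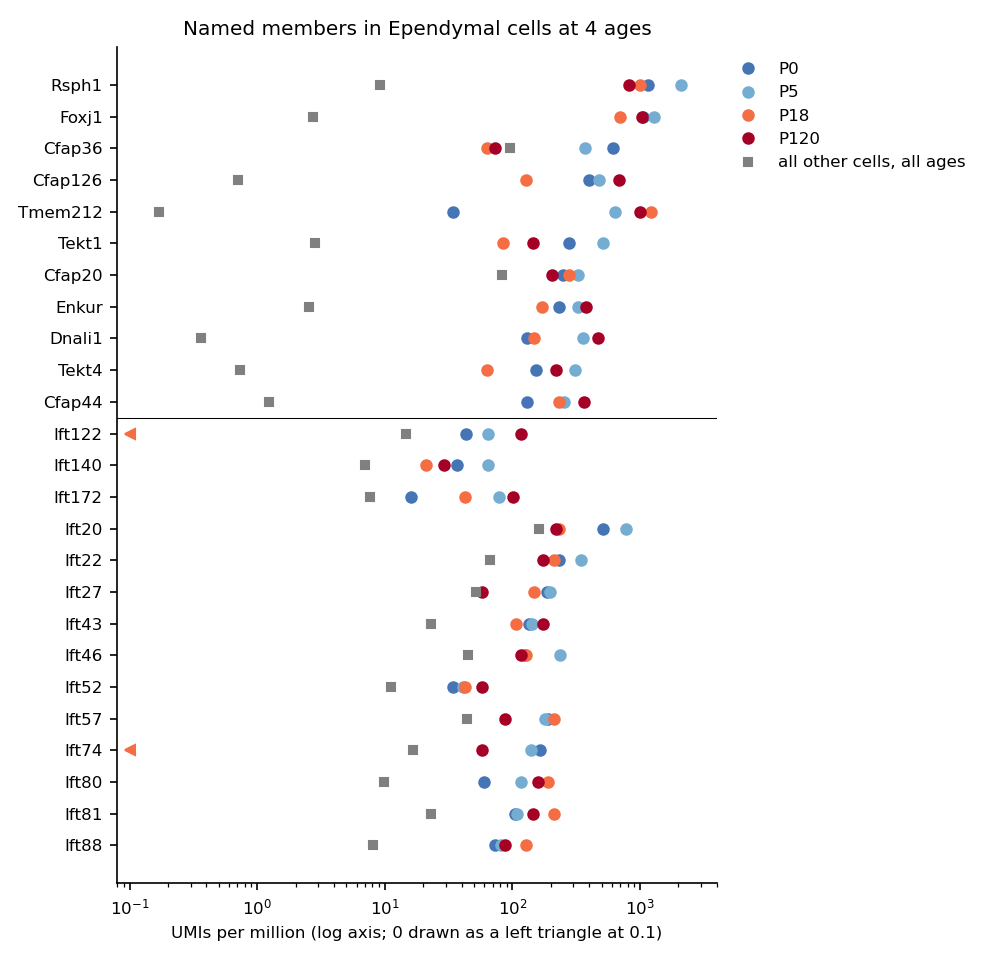
CPM on a log axis in Ependymal cells at P0, P5, P18 and P120 (circles) and in all other cells pooled over ages (grey squares), for the axonemal genes and Foxj1 among the 15 members with most Ependymal UMIs (upper rows) and the 14 IFT genes (lower rows). Cfap36 stands at 63.6 CPM at P18, left of its grey square at 95.3, and Tmem212 is lowest at P0, at 34.3 CPM.

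Promoters were examined for letters that RFX and forkhead factors are known to bind. RefSeq windows (GRCm38.p6) of the 250 bases before the start site matched 62 of 77 members. The X-box of RFX factors was searched in a loose form, GTNNCC followed after 3 bases by GNAAC, on both strands: 7 of 62 members (11.3%) held it, against 560 of 27025 genes (2.07%). The shorter GTTGCC, an X-box arm that can overlap the full form, was in 17 of 62 members (27.4%) and 11.8% of all genes. Members with a ratio of 10 or more and members under 10 held it alike, in 11 of 38 and 6 of 21. The forkhead letters GTAAACA were in 4 of 62 members (6.45%) and 3.54% of all genes. By ratio they were in 1 of 38 members at 10 or more (2.63%) and 1 of 21 under 10. The other matches were in Dnah17 and Tekt3, which had too few UMIs for a ratio. A match is a description of these letters and not a measured binding site. The windows below are 100 bases each that no annotated exon overlaps, shown because they carry the full form near the start site in axonemal and IFT genes alike, a pair of arms (Tekt1), or the forkhead letters (Cfap43). They read 5′ to 3′ on the gene's strand, with the match on either strand in capitals. They lie at chr4:34730207-34730306 (minus, Cfap206), chr16:44394696-44394795 (plus, Cfap44), chr5:136908050-136908149 (plus, Ift22), chr16:49699133-49699232 (plus, Ift57), chr11:72361883-72361982 (minus, Tekt1) and chr19:47837383-47837482 (minus, Cfap43).
Cfap206: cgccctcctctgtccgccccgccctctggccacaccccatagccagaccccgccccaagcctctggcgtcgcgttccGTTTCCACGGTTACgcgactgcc
Cfap44: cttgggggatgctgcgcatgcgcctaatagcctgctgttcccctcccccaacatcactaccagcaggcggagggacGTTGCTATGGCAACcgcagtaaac
Ift22: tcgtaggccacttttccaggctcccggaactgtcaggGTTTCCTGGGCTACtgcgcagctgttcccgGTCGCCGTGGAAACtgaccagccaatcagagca
Ift57: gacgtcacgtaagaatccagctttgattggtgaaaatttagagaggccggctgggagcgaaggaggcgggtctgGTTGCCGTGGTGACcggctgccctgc
Tekt1: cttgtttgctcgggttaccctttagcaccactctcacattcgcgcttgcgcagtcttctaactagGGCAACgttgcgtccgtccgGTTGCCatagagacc
Cfap43: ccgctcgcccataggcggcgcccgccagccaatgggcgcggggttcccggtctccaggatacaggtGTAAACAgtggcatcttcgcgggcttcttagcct
Of the genes shown, Cfap206 had a ratio of 347, Cfap44 148, Tekt1 113 and Cfap43 68.1, while Ift22 and Ift57 were under 4.

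Between P0 and P5, most axonemal genes were higher at P5 in both libraries. The axonemal sum of the Ependymal cells was 6094 and 5338 CPM in the P0 libraries (34 and 38 cells) and 10381 and 10147 CPM in the P5 libraries (17 and 28 cells). Without Ttr-high cells, which were present at P0 only, the P0 sums were 7088 and 5990 CPM. The libraries of the 2 ages did not overlap in either case. Of 45 axonemal genes with at least 20 UMIs over the 4 libraries, 38 were higher in both P5 than in both P0 libraries and 2, Cfap36 and Dnal4, were lower. Over all 6321 genes with as many UMIs, 24.8% were higher and 27.1% lower in this sense. Without Ttr-high cells it was 32 higher and 3 lower of 44, against 23.6% and 28.2% of 5924 genes. By role the 38 were 16 of 20 Cfap genes, 10 of 11 dynein heavy chains, 4 of 5 smaller dynein chains, 4 of 4 spoke genes, 2 of 3 tektins, Enkur and Tmem212. The median ratio of P5 to P0 was 2.07 for the axonemal genes and 0.993 over all genes, and 1.85 and 0.961 without Ttr-high cells. No model was fitted to these 4 libraries, whose animals are not stated. The names of both P0 libraries begin with 10X83 and those of both P5 libraries with 10X84. What these names stand for is not stated, and it cannot be told apart from age here. Other markers moved with the axonemal genes between these ages, in all Ependymal cells. The 8 ependymal markers summed to 1180 CPM at P0 and 3601 CPM at P5, and all 8 were higher at P5. The 4 neuroblast markers summed to 1267 and 365 CPM and all 4 were lower at P5, led by Igfbpl1 at 885 and 85.2 CPM, with Eomes at 4.57 and 0. The 5 astrocyte markers summed to 1269 and 1911 CPM, with Aqp4 at 36.6 and 351 CPM, but Aldoc went the other way, at 309 and 218 CPM. The 4 RGL markers summed to 361 and 167 CPM, though Cdk6 rose from 48.0 to 54.5 CPM. Mcidas, a coactivator that starts multiciliation, stood at 70.9 CPM at P0 and 10.2 CPM at P5. The regulators of multiciliated cells and RFX factors listed below, Mcidas among them, moved both ways. They summed to 784 and 644 CPM, while Trp73, Rfx1, Rfx2 and Rfx3 rose, Rfx2 from 20.6 to 71.5 CPM. The part of the mix or stage of the cells in the difference between P0 and P5 was not tested.

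Individual genes differed in how far they moved between the libraries. Tmem212 went from 63.3 and 12.1 CPM at P0 to 683 and 607 CPM at P5. Dnah12 went from 121 and 101 CPM to 282 and 266 CPM, and Dnah5 from 36.9 and 16.2 CPM to 162 and 136 CPM. In each of these the P5 values lay clear of the P0 values. Rsph1 went from 1365 and 1013 CPM to 2296 and 1967 CPM, also without overlap. Foxj1 did not separate, at 1165 and 961 CPM against 1101 and 1428 CPM. Of the 14 IFT genes, 7 were higher at P5 in both libraries (Ift122, Ift140, Ift172, Ift20, Ift22, Ift46 and Ift80) and 0 were lower. Over all 6321 genes the shares were 24.8% and 27.1%. Without Ttr-high cells it was 4 of 14 (28.6%) higher and 1 lower, against 23.6% and 28.2% of 5924 genes, so the share of IFT genes higher was near that of all genes. The median ratio of the IFT genes was 1.34, and 1.18 without Ttr-high cells.

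**Figure D5:**
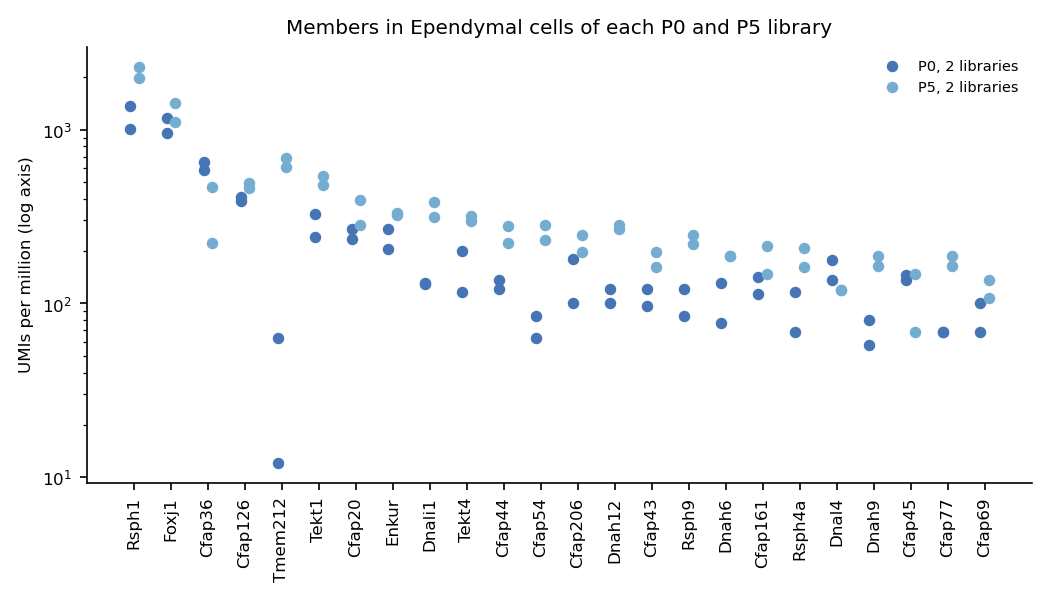
CPM on a log axis in the Ependymal cells of each P0 library (dark blue) and each P5 library (light blue) for Foxj1 and the axonemal genes with most Ependymal UMIs. P5 points lie above P0 points for most genes, such as Tmem212 and Dnali1; Foxj1 overlaps and Cfap36 is lower at P5.

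Later ages were compared with P0 and P5 in a test added after the cell numbers were seen, since P18 was the only juvenile age with 10 Ependymal cells and the planned juvenile test needed 2. With P18 and P120 against P0 and P5 (edgeR's quasi-likelihood test, 1 sum per age), 0 of 55 members that passed the filter were called in either direction, as were 0 of 4044 genes (0%). At an unadjusted p under 0.05 there were 6 members and 632 genes, and DESeq2 called 0 members, and 7 genes higher and 4 lower. Without Ttr-high cells 0 of 56 members and 0 of 4199 genes (0%) were called. The 3 smallest p-values were for Cfap36, Cfap100 and Tekt1. Cfap36 had a log2 difference of -2.84 ± 0.61 (adjusted p = 0.150 in edgeR, 95% interval -4.04 to -1.64). Cfap100 had one of 2.37 ± 0.65 (adjusted p = 0.175 in edgeR), from 22.9 CPM at P0, 71.5 at P5, 191 at P18 and 276 at P120, so that its later ages lay above its earlier ones, as they did without Ttr-high cells (27.3 CPM at P0 and 284 at P18). Tekt1 had one of -1.74 ± 0.58 (adjusted p = 0.221 in edgeR). Foxj1 had one of -0.42 ± 0.53, with an interval from -1.45 to 0.61. The median over the 42 axonemal genes tested was 0.46 and over the 12 IFT genes -0.16, against -0.09 over all genes.

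When P5 was left out of this comparison, P0 was the lone early age and was assumed to vary like the late ones. Calls of that fit rose over all genes and not only among members, so they are not counted here. In it Tmem212 had a log2 difference of 4.93, Dnah5 3.43, Cfap100 3.27 and Cfap36 -3.21. These genes were named because that same fit picked them out, so the values are no support for a change with age. Leaving out P0, P18 or P120 left a lone age in a group as well.

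Outside the Ependymal cluster no member was called between stages, where 4 classes could be compared between juvenile and perinatal ages and 2 between adult and juvenile ages (edgeR's quasi-likelihood test, ages with at least 20 cells of the class). In RGL 0 of 19 members were called, against 0.247% of 8503 genes higher and 0.0118% lower in juveniles. In nIPC 0 of 20 were called, against 0.159% and 0.254% of 9453. In Neuroblast it was 0 of 14, against 0.268% and 0.169% of 7091, and in Immature-GC 0 of 15, against 0.184% and 0.329% of 7594. In GC 0 of 34 were called between adult and juvenile ages, against 0.426% and 0.226% of 11493, and in Astro 0 of 16, against 0.267% and 0.293% of 7854. DESeq2 also called 0 members in each of the 6 comparisons. At an unadjusted p under 0.05 there were 1, 6, 1, 0, 4 and 2 members in this order, beside 1435, 1256, 923, 1036, 1412 and 885 of all genes tested. With so few genes called in all, a count of 0 among so few members is near the background.

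The member that came closest in both progenitor classes was Ift74. In RGL it stood at 69.9 CPM at E16.5, 56.2 at P0 and 45.7 at P5, and at 24.8 at P19 and 0 at P23 (log2 difference -3.32 ± 1.04, adjusted p = 0.170 in edgeR). In nIPC it stood at 70.3, 62.8 and 49.1 CPM at the perinatal ages and at 15.7 at P18 and 0 at P19 (-3.33 ± 0.95, adjusted p = 0.164 in edgeR). The juvenile ages lay below the perinatal ones in both, but the juvenile sums held 40304 and 121372 UMIs in RGL and 63733 and 91244 in nIPC, so their values rest on 0 or 1 UMI. The perinatal RGL sums also came from the cluster RGL_young (107, 325 and 241 cells), while cluster RGL gave 23 of 23 cells at P19 and 32 of 39 at P23. In nIPC, nIPC-perin gave 159 of 210, 136 of 196 and 156 of 276 perinatal cells, while cluster nIPC gave 25 of 29 and 28 of 29 juvenile cells. Stage and cluster can therefore not be told apart in these values. Next in RGL were Dnal4 at -1.38 ± 0.67 and Ift46 at -1.53 ± 0.80. Next in nIPC were Cfap20 at -1.11 ± 0.41 and Ift20 at -1.24 ± 0.50. In Neuroblast the 3 smallest p-values were for Rsph9 (1.15 ± 0.54), Ift27 (0.56 ± 0.30) and Ift57 (0.67 ± 0.38), and in Immature-GC for Ift74 (-0.52 ± 0.46), Dnal4 (-0.33 ± 0.32) and Dnal1 (0.36 ± 0.42). In GC they were for Ift22, Tekt5 and Ift74. Ift22 stood at 65.6 CPM at P18, 47.4 at P19, 94.9 at P23, 42.7 at P120 and 30.0 at P132 (-1.05 ± 0.36, adjusted p = 0.222 in edgeR), with both adult ages below all juvenile ones. Tekt5 had 1.04 ± 0.43 and Ift74 -1.13 ± 0.50. In Astro they were for Ift27 at -0.88 ± 0.32 (adjusted p = 0.272 in edgeR), Rsph9 at -0.80 ± 0.37 and Cfap97 at 0.82 ± 0.51. Adult cells were GFP-sorted from another line, so age, line and sorting cannot be told apart in GC and Astro.

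A few cells of other clusters held many axonemal transcripts. The 45 axonemal genes with a ratio of 10 or more gave at least 5 UMIs in 172 of 182 Ependymal cells and in 35 of 24003 others (0.146%), a contrast that follows from how these genes were chosen. The others included 14 of 686 RGL_young and 5 of 468 nIPC-perin cells, and 11 of 4520 Immature-Pyr cells, whose median depth of 6582 UMIs was higher. Of the 35 cells, 10 also had a Foxj1 UMI, 6 of them RGL_young and 4 nIPC-perin. At least 10 UMIs were seen in 141 Ependymal cells and in 3 others: 2 RGL_young cells, at E16.5 and P0, with 15 and 10 UMIs from 10 and 5 of the genes, and 1 nIPC-perin cell at E16.5 with 11 UMIs from 8 genes. These 3 cells were deep, at 12535, 8988 and 13217 UMIs in this order, beside medians of 3948 UMIs in RGL_young and 6096 in nIPC-perin. Their levels of 1197, 1113 and 832 CPM were below the Ependymal median of 6013 CPM and above the lowest Ependymal cell at 285 CPM. None of the 3 had a Ttr UMI, and the P0 cell's barcode also occurs in another library. No doublet caller was run, and the part of doublets in these cells was not tested.

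Other genes of the cilium were taken from 5 lists. Of 14 genes of the nexin link, axonemal ruler and central pair, 13 were tested in Ependymal against all other cells and 13 were called higher, with a median log2 difference of 5.82; Spag17, of the central pair, was at 128 against 0.205 CPM. Of 14 genes that assemble and dock dynein arms, 11 were tested and 11 called higher (median 5.42), among them Zmynd10 at 201 against 1.32 CPM. Of 16 further IFT subunits and motors, 9 of 14 tested were called higher and 1 lower (median 2.02); the lower one was Kifap3, an accessory subunit of the kinesin-2 motor, at 116 against 163 CPM. Of 9 genes of the BBSome, a cargo adaptor of IFT, 5 of 8 tested were called higher and 0 lower (median 1.74). Of 11 regulators of multiciliated cells and RFX factors, 5 were tested and 4 called higher: Myb at 161 against 1.17 CPM, Trp73 at 37.3 against 6.01, Rfx4 at 97.3 against 15.3 and Rfx1 at 20.7 against 4.65. Rfx3 stood at 171 against 109 CPM and was not called. Mcidas had 34 Ependymal UMIs and did not pass the filter, at 35.2 against 0.222 CPM. As for the members, these counts stand beside 14.3% of all genes called higher and describe the authors' cluster.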

How the data were processed

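The authors deposited a table of counts per gene and cell; that these are raw UMI counts was read from the whole-number values and the 10X version 2 chemistry in the labels. Cell Ranger and build mm10 are named in the submitters' processing notes; annotation, cell filters and clustering are not given in the sources used here. A second deposited table gave each cell's age and cluster, and 31 empty lines were left out.

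Members and gene lists were chosen with earlier results of these data known. Counts were summed per class and age. Class RGL joins RGL_young and RGL, nIPC joins nIPC-perin and nIPC, GC joins GC-juv and GC-adult, and Astro joins 3 astrocyte clusters. Every gene was fitted with edgeR 4.0.16 (R 4.3.3; TMM, filterByExpr, glmQLFit and glmQLFTest, two-sided) with Benjamini-Hochberg adjustment over all genes tested, and with DESeq2 1.42.0 as an alternative. Each SE was taken from the log2 difference and its F statistic. The fits were tested on simulated counts. Members named in full were the 15 with most Ependymal UMIs, Foxj1 and all Ift genes, and in each stage test those called and the 3 of smallest p. Overlaps came from GENCODE M21: 20 members have a gene of the other strand over their 3′ end. Intervals use 95% confidence, and the limit of a 0 count is 3 counts.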

Additional observations from a re-analysis of the deposited data

Results flagged for a closer look

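Over 61 series of values by age (the 25 named members in Ependymal cells and the axonemal and IFT sums of each cluster), 5 held an age that lay far from the others; chance alone gives about 1 in 20. In Ependymal cells Ift46 stood at 235 CPM at P5, and the other 3 ages lay between 116 and 127 CPM. The axonemal sum of Cajal-Retzius cells was 683 CPM at P18 (22 cells), against 403 to 475 CPM at 6 other ages. The axonemal sum of nIPC cells was 463 CPM at P120, against 220 to 303 CPM at 5 other ages. The IFT sum of Neuroblast cells was 632 CPM at P18 (24 cells), against 426 to 517 CPM at 7 other ages. The IFT sum of OPC cells was 657 CPM at P19 (27 cells), against 418 to 503 CPM at 6 other ages.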

How the results depend on the processing

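No paired analysis was possible because the replicate numbers in the labels are not carried by the cell names, so no cell could be given to a numbered sample; pairing was by age, and without age as a block 57 members in place of 62 were called higher against all other cells and 44 in place of 48 against Astro. Of the values recomputed for the main results 113 stayed near the first value, 10 moved and none reversed. Many of the 113 were counts of 0 that stayed at 0, among them members called lower and members called between stages, and these had no direction to keep. Near means within 1.5 times for counts, so that 37 to 64 members against Astro count as near to 48, and within the spread over ages or the 95% interval for levels and shares. Ependymal cells against all others called 62 members higher; with at least 5 Ependymal cells per age, which adds E16.5 and P23 and lets fewer members pass the filter, it was 37 of 39 tested. Leaving out each age in turn gave 51 to 65 members higher against all others and 44 to 53 against Astro, and 0 lower. Without the filter on low counts 1 of 74 members was called in Ependymal P18 and P120 against P0 and P5 (Cfap36). It was 1 of 63 in RGL and in nIPC (Ift74), 1 of 68 in GC (Ift22) and 1 of 59 in Astro (Foxj1). Each was lower at the later stage. Over all genes 50 were called higher and 91 lower of 15054 in Ependymal, and 175 and 187 of 15446 in RGL. It was 85 and 261 of 15637 in nIPC, 228 and 238 of 17852 in GC, and 126 and 130 of 15887 in Astro. A single member called is near these shares. Leave-one-out ranges of called members were 0 to 2 for GC and 0 to 0 for RGL, nIPC, Neuroblast, Immature-GC and Astro. The 2 in GC were Ift22 and Rsph1, lower without P19, where 239 of 11446 genes were called higher and 288 lower. For Ependymal P18 and P120 against P0 and P5 no range is given, as each such fit left a lone age in a group. Without Ttr-high cells 4 in place of 7 IFT genes were above P0 at P5. Without thinning 76.9% of Ependymal cells had a Foxj1 UMI. The cause was not tested where none is named. The test of Ependymal juvenile against perinatal ages and its alternatives were not run, as 1 juvenile age had 10 cells. At P18, with 47186 Ependymal UMIs, 1 UMI is 21.2 CPM, which limits single genes. The 46 members at a ratio of 10 or more became 47 with the other clusters weighted equally and 49 without Ttr-high cells. Those added without Ttr-high cells were Dnah7a and the IFT genes Ift80 and Ift88.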
